A study of Mus musculus with 10 samples.

Results

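The genes described here are 8 members of the mouse Ly6 family of surface antigens that lie together on chromosome 15: Ly6g, Ly6c1, Ly6c2, Ly6i, Ly6a, Ly6e, Ly6d and Ly6k. All 8 were found, by symbol, among the 20813 genes of the table. The set was selected with measured values of these same samples known, so the difference of each member between the groups is given as a description and not as a test. Expression was measured by RNA sequencing in leukemic spleens of C57BL/6 mice. In both groups, Sirt1 conditional knockout T-ALL (acute lymphoblastic leukemia of the T lineage, a cancer of developing T cells) had been injected intravenously into mice irradiated below the lethal dose. The 5 mice of the labelled Sirt1-deleted group (replicates 7, 8, 10, 11 and 12) received tamoxifen, 3 mg per mouse in corn oil, by intraperitoneal injection. The 5 control mice (replicates 2, 3, 4, 5 and 6) received corn oil alone, and conditional Sirt1 T-ALL had been injected into them as well. Genotype label and drug therefore coincide in every sample, and effects of Sirt1 loss and of tamoxifen cannot be told apart. The labels do not say which recombinase acts on Sirt1, which part of the gene is removed, or whether 1 leukemia or several were transplanted. Spleens were pressed into single-cell suspensions and red cells were lysed, and the labels mention no sort, so leukemic and host cells contribute to every value.

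Ly6 proteins are small, cysteine-rich proteins held on the outer face of the plasma membrane by a glycosylphosphatidylinositol (GPI) lipid anchor. Several are classical antibody antigens of mouse blood cells: Ly6g marks neutrophils, the proteins of Ly6c1 and Ly6c2 together form the Ly6C antigen of inflammatory monocytes and of some T, endothelial and plasma cells, and Ly6a is the stem cell antigen Sca-1. Transcription of Ly6a and Ly6e is raised by interferons in many cell types. Ly6e is also abundant on thymocytes, Ly6d marks early B-lymphoid progenitors, Ly6i is found on myeloid cells, and Ly6k is mainly a testis gene.

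The 8 genes span 397.1 kb of chromosome 15 in GRCm38 (the mm10 build named in the submitters' processing notes), with gene positions from GENCODE M21. Ly6d lies at chr15:74762056-74763620 and Ly6k at chr15:74796874-74799986, both on the minus strand. Ly6e follows at chr15:74955051-74959905 on the plus strand. Ly6i at chr15:74979534-74983430, Ly6a at chr15:74994877-74998031, Ly6c1 at chr15:75044018-75048830 and Ly6c2 at chr15:75108158-75111970 are all on the minus strand. Ly6g ends the series at chr15:75155240-75159126 on the plus strand. All 8 are annotated as protein coding.

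Some of these genes are near copies of one another, which bears on how reads are shared out between them. Ly6c1 and Ly6c2 were 93.8% identical over 386 aligned coding bases, and Ly6a and Ly6i were 86.3% identical over 402. The first 240 coding bases of the longest coding transcripts of Ly6c1 and Ly6c2 are printed here, from GENCODE M21, because they show where a read can and cannot tell the pair apart; capitals mark the bases that differ.
Ly6c1: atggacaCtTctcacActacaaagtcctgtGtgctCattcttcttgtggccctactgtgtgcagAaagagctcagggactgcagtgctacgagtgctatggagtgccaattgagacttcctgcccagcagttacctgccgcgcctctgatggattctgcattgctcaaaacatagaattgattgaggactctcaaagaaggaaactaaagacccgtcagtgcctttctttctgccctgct
Ly6c2: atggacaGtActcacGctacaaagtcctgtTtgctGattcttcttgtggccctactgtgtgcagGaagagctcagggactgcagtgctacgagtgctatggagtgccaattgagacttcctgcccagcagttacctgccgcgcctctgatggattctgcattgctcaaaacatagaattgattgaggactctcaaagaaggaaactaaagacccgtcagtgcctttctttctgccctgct
The pair differed at 6 of these 240 bases, the last of them at base 65 from the start of the coding sequence, and the following 175 bases were identical. Counting every stretch of 31 bases in all annotated transcripts of a gene, 46.8% of the stretches of Ly6c1 also occurred in another gene, 31.9% of those of Ly6a, 23.7% of those of Ly6c2, 19.2% of those of Ly6i and 9.55% of those of Ly6g. The share was 0.422% for Ly6e and 0 for Ly6d and Ly6k. The division of reads between Ly6c1 and Ly6c2, and among Ly6a, Ly6i and their relatives, is accordingly less certain than the values of Ly6e, Ly6d, Ly6k and Ly6g.

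The deposited values were normalized with DESeq by the authors; they are called normalized counts here and summed to 33.7 M to 34.5 M per sample (M, mega). Depth in whole reads is unknown. Of the 15276 genes with a mean normalized count of at least 10, limma gave an adjusted p under 0.05 for 36.1%, 16.8% higher and 19.4% lower in the labelled Sirt1-deleted group, and the median log2 difference of all of them was -0.00014. Sirt1 did not separate the groups: it had a normalized count of 1715 to 2097 in the labelled Sirt1-deleted group against 1735 to 1909 in controls (log2 difference 0.05, 95% interval -0.08 to 0.17, exact two-sided permutation p = 0.413), so the labels could not be checked by the level of the targeted gene. T-cell genes were abundant throughout, with a mean normalized count of 12118 for Cd3e and 66405 for Thy1, and the labels give no batch, date or sex. No label says that the samples of a group came from separate leukemias, so each p-value measures only the spread between these samples.

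Among the 8 genes, the 4 members Ly6g, Ly6c2, Ly6i and Ly6a were higher in every labelled Sirt1-deleted sample than in any control, Ly6e was lower in every one, and the groups overlapped for Ly6c1, Ly6d and Ly6k. Over all 15276 genes, 11.1% had groups that did not overlap in the higher direction and 12.9% in the lower direction; because the set was selected on this contrast, nothing is read from the members' counts. In RNA from a whole spleen, a change in the number of cells of a type and a change in RNA per cell cannot be told apart. Ly6k did not pass the minimum mean of 10. Ly6i passed it, with a mean of 10.8, only through the group in which it was higher.

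**Figure D1:**
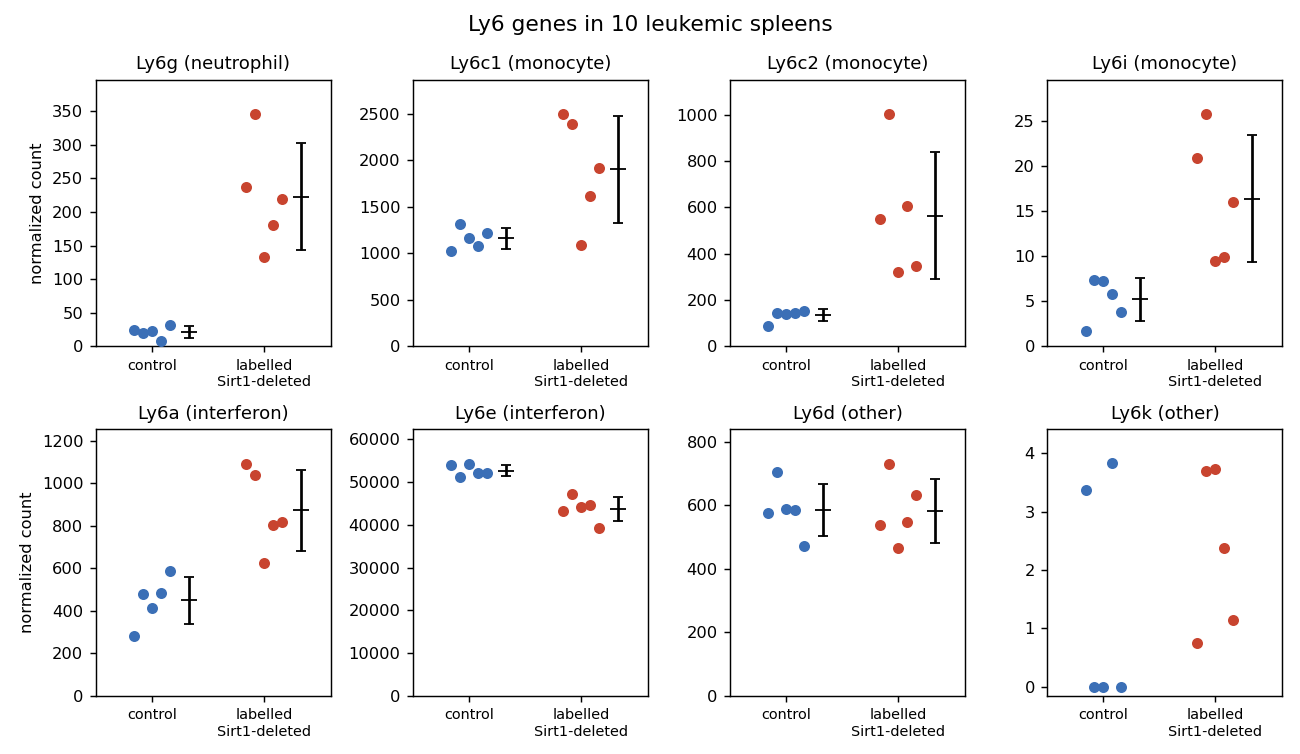
Normalized counts (y axis, a separate linear scale for each gene) of the 8 Ly6 genes in the 5 control and the 5 labelled Sirt1-deleted samples; points are samples, and the bar beside each group is mean ± SD except for Ly6k, which has no bar. The labelled Sirt1-deleted points of Ly6g (132 to 346) lie above all control points (6.87 to 30.8), while those of Ly6e (39186 to 47209) lie below them (51173 to 54204).

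Ly6g, the neutrophil antigen, showed the widest separation. Its normalized count was 237, 346, 132, 180 and 219 in labelled Sirt1-deleted replicates 7, 8, 10, 11 and 12. It was 24.3, 19.99, 22.6, 6.87 and 30.8 in control replicates 2, 3, 4, 5 and 6. The highest control was thus below the lowest labelled Sirt1-deleted sample, replicate 10, and control 5 stood lowest. The group means were 223 ± 79.5 and 20.9 ± 8.81 (SD, n = 5 each), a ratio of 10.7, and the log2 difference was 3.42 (SE 0.35). Over the alternatives that kept all samples or left out labelled Sirt1-deleted samples 10 and 11 together, it ranged from 3.16 to 3.72.

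Genes of neutrophil granules, receptors and differentiation rose beside Ly6g. Of 25 neutrophil genes listed without Ly6g, all 25 were tested and 24 rose (limma adjusted p under 0.05). The median log2 difference of the list was 2.08, against -0.00014 over all genes. By limma 0 fell, also at an unadjusted p under 0.05, and by an exact rank-sum test 18 rose and 0 fell. Over all genes tested, 16.8% rose and 19.4% fell. This list and all others were chosen with earlier results of these data known, so their counts are a description. Mmp9, a granule gelatinase, rose by 2.91 (SE 0.37, adjusted p = 4.04e-04), and Ltf, the iron-binding lactoferrin of secondary granules, by 2.83 (SE 0.29, adjusted p = 1.19e-04). S100a8, a subunit of the alarmin calprotectin, rose by 2.26 (SE 0.27, adjusted p = 2.62e-04), and Cxcr2, the chemokine receptor that brings neutrophils out of the marrow, by 1.74 (SE 0.23, adjusted p = 4.81e-04). The gene that did not pass was Elane, neutrophil elastase of the primary granules, at 0.75 (adjusted p = 0.213).

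The summed normalized count of the neutrophil list ran from 30409 in labelled Sirt1-deleted replicate 10 to 105752 in replicate 8, and from 10022 to 13614 in controls. Replicates 10 and 8 were also the lowest and the highest of that group for Ly6g. Ly6g did not keep a fixed proportion to S100a8: its normalized count was 2.44% ± 0.378 of that of S100a8 in the labelled Sirt1-deleted group (range 1.93% to 2.80%) against 1.14% ± 0.513 in controls (range 0.401% to 1.75%; SD, n = 5 each). The share of the difference in Ly6g that goes with neutrophil number was not tested.

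Ly6c2, one of the paired Ly6C genes, had the next largest difference. Its normalized count was 547, 1002, 318, 607 and 348 in labelled Sirt1-deleted replicates 7, 8, 10, 11 and 12. The controls had 88.8, 142, 138, 145 and 152 in replicates 2 to 6. The lowest labelled Sirt1-deleted sample, replicate 10, was above the highest control, and replicate 8 stood well above the rest. The means were 564 ± 274 and 133 ± 25.3 (SD, n = 5 each), a ratio of 4.24, and the log2 difference was 1.97 (SE 0.27).

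Ly6c1, its near copy, differed less. It had a normalized count of 2492, 2392, 1087, 1616 and 1912 in labelled Sirt1-deleted replicates 7, 8, 10, 11 and 12. Controls 2 to 6 had 1018, 1312, 1168, 1072 and 1218. Of the labelled Sirt1-deleted samples, 4 of 5 were above every control and replicate 10 lay inside the control range. The means were 1900 ± 578 and 1158 ± 116 (SD, n = 5 each), a ratio of 1.64, with a log2 difference of 0.66 (SE 0.19).

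The balance within the Ly6C pair differed along with its sum. Ly6c2 made up 22.6% ± 5.98 of the summed normalized count of Ly6c1 and Ly6c2 in the labelled Sirt1-deleted group (range 15.4% to 29.5%) against 10.3% ± 1.47 in controls (range 8.02% to 11.9%; SD, n = 5 each). The ranges do not overlap. The sum of both genes was 2464 ± 777 in the former and 1291 ± 135 in the latter, which does not depend on how reads were divided inside the pair. The 581 stretches of 31 bases that the genes share are 33% of those of Ly6c1 and 21.4% of those of Ly6c2. The share of the pair held by Ly6c2 therefore rests on the remaining sequence, which is not all unique. Ly6c1 had 46.8% of its stretches in another gene, with 276 also in Ly6a and 72 in Ly6i. How far reads of Ly6a enter the share or the sum was not tested.

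Ly6i, a low-level myeloid gene, had a normalized count of 20.8, 25.7, 9.496, 9.90 and 15.96 in labelled Sirt1-deleted replicates 7, 8, 10, 11 and 12, and of 1.71, 7.31, 7.26, 5.83 and 3.75 in controls 2 to 6. The groups did not overlap, but replicates 10 and 11 were close to controls 3 and 4. The means were 16.4 ± 7.01 and 5.17 ± 2.42 (SD, n = 5 each) and the log2 difference was 1.51 (SE 0.42). The log2 difference was 1.05 when a constant of 5 was added in place of 1, and 1.91 without labelled Sirt1-deleted samples 10 and 11.

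Monocyte and macrophage genes rose beside Ly6c1, Ly6c2 and Ly6i. Of 30 such genes listed, all tested, 23 rose and 1 fell, with a median log2 difference of 0.95. Among all genes tested, 16.8% rose and 19.4% fell. Lyz2, the lysozyme of myeloid cells, rose by 1.94 (SE 0.22, adjusted p = 2.27e-04), and Fn1, fibronectin, by 1.49 (SE 0.41, adjusted p = 0.0144). Ccr2, the chemokine receptor of inflammatory monocytes, rose by 1.02 (SE 0.23, adjusted p = 0.00559), and Csf1r, the growth factor receptor of the lineage, by 0.43 (SE 0.12, adjusted p = 0.0163). Ace, which is high in patrolling monocytes and also elsewhere, fell by 0.46 on the log2 scale (SE 0.13, adjusted p = 0.0192). The groups overlapped for Fn1, Csf1r and Ace, and did not overlap for Lyz2 and Ccr2. The summed normalized count of the list was 12767 to 23266 in the labelled Sirt1-deleted group against 6936 to 7807 in controls. Replicate 10, lowest for Ly6c1, Ly6c2 and Ly6i, was also the lowest for this sum, and replicate 8, highest for Ly6c2 and Ly6i, was the highest. The part of monocyte number in the Ly6C values was not tested.

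Ly6C is also carried by cells other than monocytes, so markers of some of those cells are given beside it. The neutrophil list, described above with Ly6g, also had replicate 10 lowest and replicate 8 highest in the labelled Sirt1-deleted group, as for Ly6c2. The part of neutrophil number in the Ly6C values was not tested. Endothelial genes had no common direction, where 16.8% of all genes tested rose and 19.4% fell. Of 20 listed, 18 were in the table and 12 were tested. Of these 2 rose and 2 fell, and the median log2 difference was -0.0017. The 4 were Mmrn2 at 1.29, Flt1 at 1.06, Tie1 at -0.90 and Plvap, the diaphragm protein of fenestrated endothelium, at -0.53 (adjusted p = 0.0149); all but Plvap were picked out after their values were seen. The calls of Flt1 and Tie1 each ended in 7 of the 10 fits that left out 1 sample, with adjusted p of up to 0.0983 and 0.0856, and the list had 2 calls without any 1 of labelled Sirt1-deleted samples 7, 8 and 12 or controls 5 and 6. Cdh5, the endothelial cadherin, had a normalized count of 0.984 to 7.53 in the labelled Sirt1-deleted group and 7.96 to 20.2 in controls, with means of 3.10 ± 2.67 and 14.1 ± 5.19 (SD, n = 5 each). Its groups did not overlap, and it missed the minimum mean of 10 only through its low group. With a minimum mean of 1, or none, the list had 5 calls, 2 higher and 3 lower. Emcn and Sox17 are not in the table. The summed normalized count of the endothelial list was 4237 to 5323 in the labelled Sirt1-deleted group against 4677 to 4973 in controls.

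Of 9 plasma cell genes tested, 5 rose and 2 fell, with a median log2 difference of 0.62, where 16.8% of all genes rose and 19.4% fell. Mzb1, a chaperone of antibody secretion, rose by 1.16 (SE 0.28, adjusted p = 0.00812) and Jchain, which joins antibody polymers, by 0.98 (SE 0.24, adjusted p = 0.00861). The other 3 that rose, Eaf2 at 0.74, Derl3 at 0.71 and Creld2 at 0.62, were picked out after their values were seen. The Eaf2 call ended under quantile normalization (adjusted p = 0.0617), and that of Derl3 in 7 of the 10 fits without 1 sample (adjusted p up to 0.0915). Irf4, a transcription factor also expressed in activated T cells, fell by 0.59 on the log2 scale (adjusted p = 0.00399) and Sdc1, the plasma cell syndecan, by 0.25 (adjusted p = 0.0118). The summed normalized count of the plasma cell list was 9785 to 11510 in the labelled Sirt1-deleted group against 8866 to 10674 in controls, which overlap. Of 9 plasmacytoid dendritic cell genes tested, 1 rose and 0 fell: Siglech, the lectin that defines these cells, was at 0.82 (adjusted p = 0.0312). That call ended without any 1 of labelled Sirt1-deleted samples 11 and 12 or controls 2, 4 and 5 (adjusted p up to 0.0750), an exact rank-sum test called 0 of the 9, and at an unadjusted p under 0.05 limma had 1 higher and 0 lower.

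The 300-base promoters of the neutrophil and monocyte members are shown because all 3 had a higher mean in the labelled Sirt1-deleted group. The RefSeq promoter table for GRCm38.p6 held 3 of the 8 members, Ly6g, Ly6c1 and Ly6c2; each sequence runs from 250 bases before to 50 after the annotated start, 5′ to 3′ along the gene, and capitals mark GAGGAA on either strand, a core of myeloid ETS factors such as PU.1.
Ly6g (chr15:75155011-75155310, plus strand): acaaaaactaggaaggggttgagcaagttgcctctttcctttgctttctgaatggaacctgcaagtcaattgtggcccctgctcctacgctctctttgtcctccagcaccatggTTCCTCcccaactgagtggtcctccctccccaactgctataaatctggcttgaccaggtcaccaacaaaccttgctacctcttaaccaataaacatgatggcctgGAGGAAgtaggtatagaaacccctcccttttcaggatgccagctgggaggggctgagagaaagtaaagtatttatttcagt
Ly6c1 (chr15:75048788-75049087, minus strand): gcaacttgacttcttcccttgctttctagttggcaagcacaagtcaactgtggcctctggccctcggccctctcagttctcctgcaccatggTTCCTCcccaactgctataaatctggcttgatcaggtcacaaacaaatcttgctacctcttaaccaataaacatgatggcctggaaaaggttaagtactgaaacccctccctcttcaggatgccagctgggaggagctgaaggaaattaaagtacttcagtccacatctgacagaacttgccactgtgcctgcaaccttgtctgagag
Ly6c2 (chr15:75111922-75112221, minus strand): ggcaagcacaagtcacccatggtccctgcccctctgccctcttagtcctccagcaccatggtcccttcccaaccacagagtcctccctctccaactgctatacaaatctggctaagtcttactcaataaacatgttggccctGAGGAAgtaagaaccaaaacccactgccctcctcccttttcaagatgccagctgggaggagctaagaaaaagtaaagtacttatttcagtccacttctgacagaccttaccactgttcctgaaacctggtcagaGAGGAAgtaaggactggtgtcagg
GAGGAA or its complement occurred at 2 places in the Ly6g window, 1 in that of Ly6c1 and 2 in that of Ly6c2, and 28.3% of all 32851 promoters of the table held it at least once. TTGCNNAA, part of the sequence bound by C/EBP factors, was found once in Ly6g and in neither Ly6C window (10.8% of all promoters, both strands searched). The interferon-related patterns GAAANNGAA (8.56% of promoters) and TTCNNNGAA (8.30%) were in none of the 3 windows. The table gives each of the 3 genes a second annotated start, whose window is not printed; those windows held GAGGAA at 3, 2 and 2 places in Ly6g, Ly6c1 and Ly6c2, and none held TTGCNNAA or either interferon-related pattern. The match counts therefore depend on which start is used. Matches of different patterns may overlap, and TTCNNNGAA can contain GAGGAA; a match describes letters only. The Ly6g and Ly6c1 promoters were 84.5% identical over 252 aligned bases, Ly6c1 and Ly6c2 78.2% over 266, and Ly6g and Ly6c2 80.7% over 223.

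Ly6a, the interferon-responsive antigen Sca-1, was higher in the labelled Sirt1-deleted group. Its normalized count was 1089, 1037, 623, 801 and 815 in replicates 7, 8, 10, 11 and 12, against 282, 479, 415, 482 and 585 in controls 2 to 6. Replicate 10 was the lowest of its group and lay just above control 6, the highest control. The means were 873 ± 190 and 449 ± 111 (SD, n = 5 each), a ratio of 1.95, and the log2 difference was 0.97 (SE 0.19).

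Ly6e, the other interferon-responsive member, went the opposite way. It had a normalized count of 43352, 47209, 44174, 44623 and 39186 in labelled Sirt1-deleted replicates 7, 8, 10, 11 and 12. Controls 2 to 6 had 53915, 51173, 54204, 52174 and 52134. Every labelled Sirt1-deleted sample was below every control, replicate 12 furthest. The means were 43709 ± 2910 and 52720 ± 1291 (SD, n = 5 each), a ratio of 0.829, and the log2 difference was -0.27 (SE 0.05), with a range of -0.34 to -0.21 over the alternatives. Ly6a amounted to 2.0% ± 0.418 of the normalized count of Ly6e in the labelled Sirt1-deleted group against 0.854% ± 0.224 in controls (SD, n = 5 each), and the ranges, 1.41% to 2.51% and 0.523% to 1.12%, do not overlap.

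Most interferon response genes rose in the group in which Ly6a was higher and Ly6e lower. Of 40 genes listed without the Ly6 members, all 40 were tested, 36 rose and 0 fell, with a median log2 difference of 1.42. At an unadjusted p under 0.05, 37 rose and 0 fell, and by the exact rank-sum test 33 rose and 0 fell. The shares over all genes tested were 16.8% higher and 19.4% lower. Like the other lists, this one was chosen with earlier results of these data known. Ifit1 and Ifit3, antiviral proteins that act on foreign RNA, rose by 3.26 (SE 0.26, adjusted p = 3.52e-05) and 3.24 (SE 0.27, adjusted p = 3.52e-05). The 4 that did not pass, picked out after their values were seen, were Rsad2 at 0.73 (adjusted p = 0.155), Phf11b at 0.37 (0.0795), Ifit2 at -0.12 (0.196) and Dtx3l at -0.05 (0.654). Without labelled Sirt1-deleted replicate 11, Ifit2 passed as lower (adjusted p = 0.0291), and without replicate 10, Phf11b passed as higher (adjusted p = 0.00121). Dtx3l was above 0 under upper-quartile rescaling (0.01) and quantile normalization (0.02).

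Among 23 tested genes of the gamma interferon response, 19 rose and 0 fell (also 0 at an unadjusted p under 0.05 and by the rank-sum test, which had 12 higher), with a median log2 difference of 0.51. Of all genes tested, 16.8% rose and 19.4% fell. Iigp1 and Tgtp1, GTPases that attack the vacuoles of intracellular pathogens, rose by 2.11 (SE 0.29, adjusted p = 5.78e-04) and 2.09 (SE 0.30, adjusted p = 6.19e-04). Gbp2, a guanylate-binding protein, rose by 0.45 (SE 0.16, adjusted p = 0.0472), a call that ended without any 1 of labelled Sirt1-deleted samples 7, 8, 11 and 12 or controls 2, 4 and 6 (adjusted p up to 0.119). The summed normalized count of the 40 interferon response genes was 49396 to 75971 in the labelled Sirt1-deleted group, replicate 10 again the lowest, and 31929 to 37208 in controls.

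The receptors and kinases of the pathway did not share that direction, and its ligands were mostly not covered. The listed ligand genes Ifna2, Ifna4, Ifnb1, Ifnl2 and Ifnl3 were not in the table. Of 15 listed, 10 were in the table and 9 were tested. Of these 2 rose and 4 fell, and the median log2 difference was -0.04. The shares over all genes tested were 16.8% and 19.4%. Ifnlr1, a receptor chain for lambda interferons, rose by 1.96 (adjusted p = 0.00101), and Ifngr2, a chain of the gamma interferon receptor, by 0.39 (SE 0.12, adjusted p = 0.0211), though not past the threshold without replicate 7 or replicate 8 of the labelled Sirt1-deleted group (adjusted p up to 0.0559). Jak2 fell by 0.45 on the log2 scale (adjusted p = 0.00163), Ifngr1 by 0.42 (adjusted p = 3.90e-04), Jak1 by 0.35 (adjusted p = 0.00303) and Ifnar1, a chain of the type I receptor, by 0.19 (adjusted p = 0.0212). The Ifnar1 call ended without control 2 (adjusted p = 0.0522) and under the upper-quartile and quantile scalings (adjusted p up to 0.0621).

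**Figure D2:**
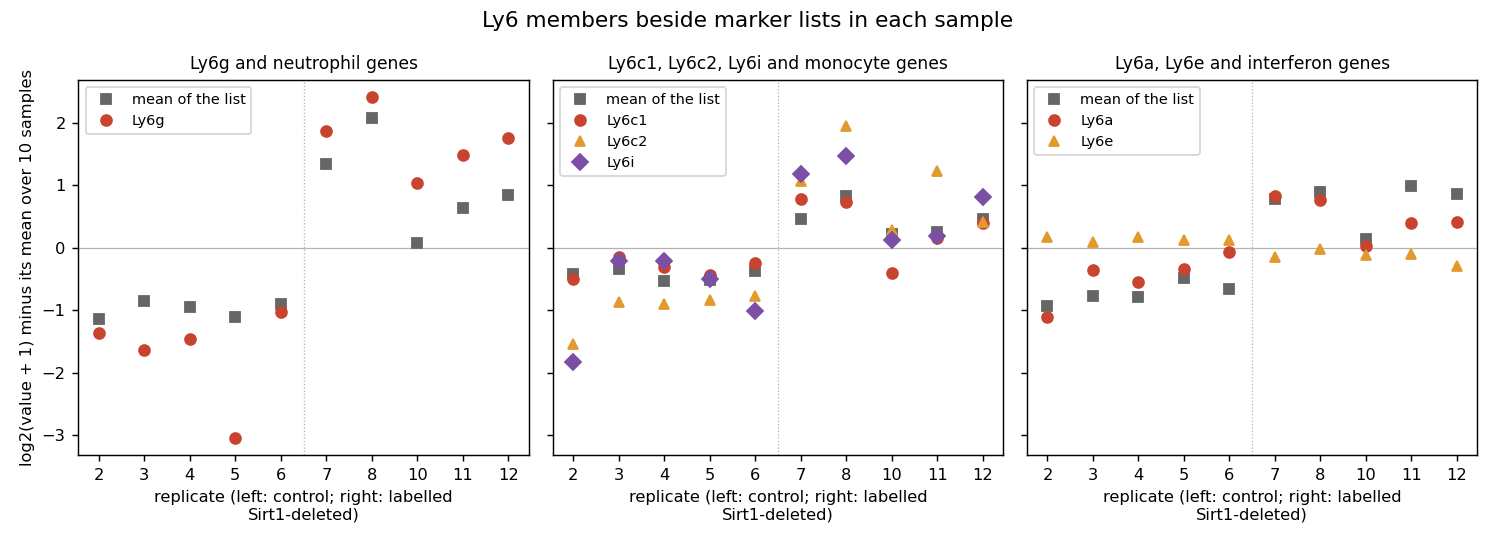
For each sample (x axis: replicate number, controls left of the dotted line), the log2(normalized count + 1) of a Ly6 gene minus its mean over the 10 samples (coloured symbols, y axis) beside the same quantity averaged over a gene list (grey squares): neutrophil genes with Ly6g, monocyte and macrophage genes with Ly6c1, Ly6c2 and Ly6i, and interferon response genes with Ly6a and Ly6e. Replicate 10 is the lowest of the 5 labelled Sirt1-deleted samples for Ly6g, Ly6c1, Ly6c2, Ly6i and Ly6a and for each list mean, and Ly6e stays close to 0 with the opposite sign.

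Ly6d, the marker of early B-lymphoid progenitors that is also made by thymocytes, did not separate the groups. Its normalized count was 540, 730, 466, 549 and 633 in labelled Sirt1-deleted replicates 7, 8, 10, 11 and 12 and 576, 706, 588, 585 and 472 in controls 2 to 6. The values interleave, with means of 584 ± 101 and 586 ± 83.0 (SD, n = 5 each) and a log2 difference of -0.01 (SE 0.13), whose sign depended on the scaling. Of 13 B-cell genes tested, 1 rose and 0 fell by limma, with a median log2 difference of 0.28. At an unadjusted p under 0.05, 3 rose and 0 fell, and by the rank-sum test 1 and 0. The shares over all genes tested were 16.8% higher and 19.4% lower. The gene that rose by limma was Blnk, an adaptor of B-cell receptor signalling, at 1.09 (SE 0.27, adjusted p = 0.00821). Leaving out labelled Sirt1-deleted replicates 10 or 11 or control 3 raised the count of B-cell genes that rose to between 2 and 3.

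Ly6k was barely detected. It was listed at 0.748, 3.69, 3.72, 2.38 and 1.14 in labelled Sirt1-deleted replicates 7, 8, 10, 11 and 12, at 3.37 and 3.83 in controls 2 and 5, and at 0 in controls 3, 4 and 6. No ratio is given for it.

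Levels of different genes were compared per kb of the longest coding transcript, and their order can change with the transcript chosen. Coding transcripts had 336 to 955 bases for Ly6a, 393 to 844 for Ly6c1 and 431 to 2281 for Ly6e. The ranges below cover samples only and leave out this uncertainty. In controls Ly6e led with a mean of 23110 normalized counts per kb, followed by Ly6c1 (1372), Ly6d (787), Ly6a (470), Ly6c2 (162), Ly6g (22.2), Ly6i (4.47) and Ly6k (1.82, a mean over 3 zeros). In that order, the only neighbours whose ranges over the 5 controls overlapped were Ly6i (1.48 to 6.32 per kb) and Ly6k (0 to 4.84 per kb). In the labelled Sirt1-deleted samples the mean was 19160 per kb for Ly6e, 2251 for Ly6c1, 915 for Ly6a, 784 for Ly6d, 687 for Ly6c2, 237 for Ly6g and 14.2 for Ly6i. Here Ly6a, Ly6d and Ly6c2 overlapped, at 652 to 1141, 627 to 981 and 387 to 1218 per kb. Ly6e made up 91.3% ± 1.99 of the summed normalized count of the 8 genes in that group and 95.7% ± 0.510 in controls (SD, n = 5 each), and the sum itself was 47871 ± 3456 and 55073 ± 1114.

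Several members shared their lowest or highest replicate within the labelled Sirt1-deleted group. The order of the other replicates differed between members, and joint variation was not tested. Among the 7 that passed the minimum mean, replicate 10 was the lowest of that group in 6, all but Ly6e, for which it was replicate 12. Replicate 8 was the highest in 5, namely Ly6g, Ly6c2, Ly6i, Ly6e and Ly6d, and replicate 7 in Ly6c1 and Ly6a. Among controls, replicate 2 was the lowest in 4, Ly6c1, Ly6c2, Ly6i and Ly6a. Without labelled Sirt1-deleted samples 10 and 11 the differences of Ly6g, Ly6c2, Ly6i, Ly6a, Ly6c1 and Ly6e kept their sign.

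The genes whose profile over the 10 samples was most like that of a member were found by the root mean square difference of log2 values after each gene was centred on its own mean; this measure includes the difference between the groups and is a description. For Ly6g they were Chil1 (0.53), Mcemp1 (0.60) and Ltf (0.60). For Ly6c2 they were Lyz2 (0.19), Rab44 (0.24) and Cebpe (0.24), and for Ly6c1 Trim12a (0.12), Ncf4 (0.13) and Acrbp (0.13). Lyz2 is in the monocyte and macrophage list above, and Cebpe is in the neutrophil list. Ly6i was nearest to Ppp1r3d (0.24), C1rl (0.30) and Ebi3 (0.31), and Ly6a to Nudt7 (0.16), Olfr846 (0.18) and Nlrc5 (0.18). Ly6e was nearest to Rac2 (0.03) and Alpl (0.03), Ly6d to Lpp (0.10), Clstn1 (0.11) and Zfp738 (0.11), and Ly6k to Zfp862-ps (0.52), Rgs11 (0.57) and Rps7-ps2 (0.60). Small differences are easier to reach for genes that vary little, so the values are not comparable between members.

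Along the chromosome, the 5 members from Ly6i to Ly6g had a higher mean in the labelled Sirt1-deleted group, and Ly6d and Ly6e before them did not. Ly6k, between Ly6d and Ly6e, was barely detected and is left out of this order. Its means were 2.34 in the labelled Sirt1-deleted group and 1.44 in controls. The 9 other genes of the table inside the span included 4 that could be tested, of which 1 rose and 1 fell. The shares over all genes tested were 16.8% higher and 19.4% lower. I830127L07Rik, at chr15:75131377-75135128 on the minus strand between Ly6c2 and Ly6g, is annotated in GENCODE M21 as a transcribed pseudogene and is Ly6a2 in RefSeq; it was picked out after its values were seen. Its normalized count was 127, 184, 117, 114 and 88.0 in labelled Sirt1-deleted replicates 7, 8, 10, 11 and 12 and 18.4, 22.1, 23.9, 20.2 and 15.2 in controls 2 to 6. It rose by 2.57 (SE 0.21, limma adjusted p = 3.52e-05), and all 5 labelled Sirt1-deleted samples were above all controls. Of its 31-base stretches, 26.4% occur in another gene, and its promoter was 98.3% identical to that of Ly6c2 over 295 aligned bases. Unlike the Ly6c2 window, its 300-base window held GAGGAA at 0 places. It also held 0 matches of TTGCNNAA and of the interferon-related patterns.

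The other 3 tested genes of the span did not follow the members at the Ly6g end. Cyp11b2, which encodes aldosterone synthase, was at -0.84 (SE 0.29, adjusted p = 0.0391), a call that ended without any 1 of labelled Sirt1-deleted samples 7, 8 and 12 or controls 2, 4 and 5 (adjusted p up to 0.0951). The 2010109I03Rik gene, Ly6m in RefSeq, was at -0.06 (SE 0.11, adjusted p = 0.680), with means of 127 ± 5.25 and 133 ± 11.2 (SD, n = 5 each), and the pseudogene Gm6610 was at -0.27 (adjusted p = 0.334). Within 500 kb on either side, 12 genes were in the table and 8 were tested. By limma 1 of them fell, Zfp41 by 0.68 on the log2 scale (SE 0.10, adjusted p = 7.66e-04), and 0 rose. Over all genes tested, 16.8% rose and 19.4% fell.

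**Figure D3:**
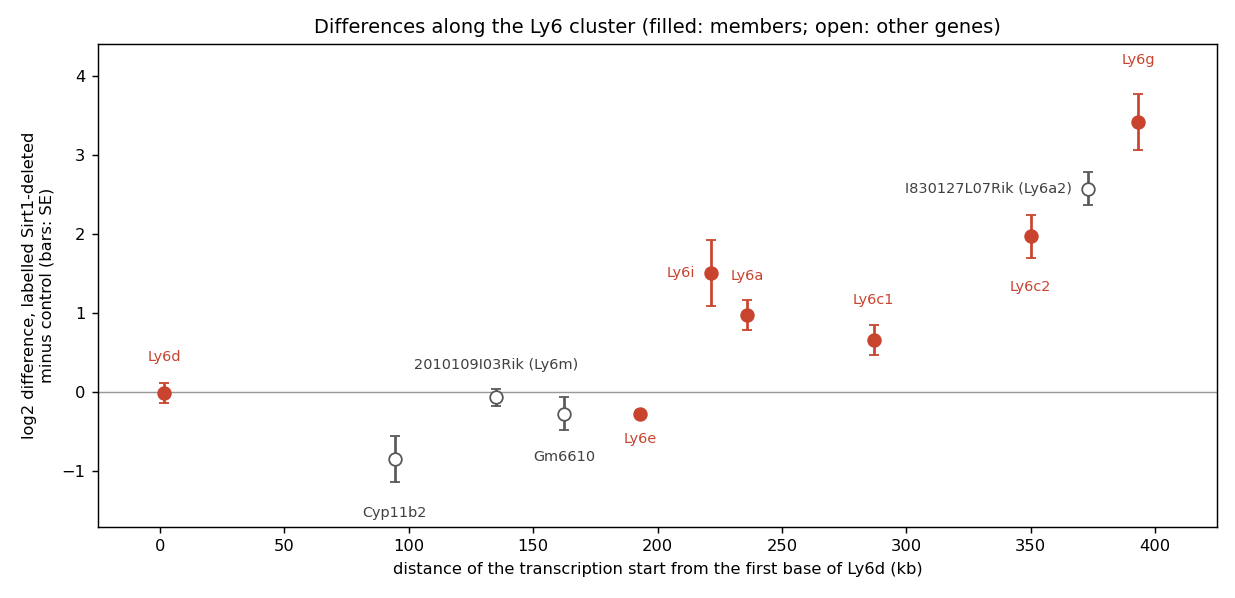
Log2 difference of labelled Sirt1-deleted minus control samples (y axis; bars are SE) against the distance in kb of each gene's transcription start from the first base of Ly6d (x axis). Filled points are the 7 members that passed the minimum mean and open points are the 4 other tested genes of the span; Ly6g at 3.42, I830127L07Rik at 2.57 and Ly6c2 at 1.97 lie at the right end, and Ly6d at -0.01 lies at the left end.

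Most tested genes of the wider Ly6/uPAR family were not called, as was the case over all genes. Of 36 other genes with a Ly6/uPAR domain, the fold that the whole family shares, 18 were in the table and 11 were tested; 3 rose and 0 fell (limma; the same counts at an unadjusted p under 0.05, and 2 and 0 by the rank-sum test), with a median log2 difference of -0.06. Of all genes tested, 36.1% were called, 16.8% higher and 19.4% lower. Cd177, a neutrophil surface antigen, rose by 1.95 (SE 0.29, adjusted p = 7.56e-04). Its normalized count was 652 to 2410 in labelled Sirt1-deleted mice, with replicate 10 the lowest and replicate 8 the highest as for Ly6g, and 227 to 352 in controls. Plaur, the urokinase receptor of activated myeloid cells, rose by 1.10 (SE 0.29, adjusted p = 0.0122).

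Lypd1, a family member best known from the nervous system, was at 2.59 (SE 0.91, adjusted p = 0.0416), but control 6 had a normalized count of 51.7, above every labelled Sirt1-deleted sample (11.4 to 38.1), while the other 4 controls were at 0.176 to 1.30. Without control 6 the call held, and without any other single sample it ended (adjusted p up to 0.101). The remaining 8, Cd59a, Cd59b, Ly6g5b, Ly6h, Lynx1, Lypd5, Lypd6b and the 2010109I03Rik gene inside the span, had log2 differences of -0.21 to 0.35 and adjusted p of at least 0.158. Lynx1 and Ly6h lie within 500 kb of the cluster.

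Among genes of GPI anchor synthesis, attachment and remodelling, 33 were listed, all in the table, and 32 were tested. Of these 6 rose and 6 fell, with a median log2 difference of -0.06, where 16.8% of all genes tested rose and 19.4% fell. With upper-quartile rescaling or quantile normalization 8 rose and 5 fell. Tmem8, which carries the current symbol Pgap6 and encodes a phospholipase that acts on GPI anchors, rose by 0.38 (SE 0.11, adjusted p = 0.0198), and Dpm3, a subunit of the mannose donor synthase, by 0.33 (SE 0.08, adjusted p = 0.00749). Pigv, an anchor mannosyltransferase, fell by 0.37 on the log2 scale (SE 0.09, adjusted p = 0.00918). Pigq, of the complex that starts the anchor, was at -0.33 (adjusted p = 0.0304), and its call ended without any 1 of labelled Sirt1-deleted samples 7, 8 and 12 or controls 2 and 6 (adjusted p up to 0.0778). The other 4 that rose, Pigc at 0.30, Gpaa1 at 0.28, Pigf at 0.26 and Tmed2 at 0.15, were picked out after their values were seen. The Pigf call ended without any 1 of labelled Sirt1-deleted samples 11 and 12 or controls 2 and 4 (adjusted p up to 0.0846), and that of Tmed2 without control 2 or 3 (adjusted p up to 0.0612). Without control 2 the whole list had 6 calls in place of 12.

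Markers of the leukemia and of other cells of the spleen gave the setting. Of 22 T-lineage genes, all tested, 3 rose and 6 fell, with a median log2 difference of -0.03. Over all genes tested, 16.8% rose and 19.4% fell. Thy1, a GPI-anchored T-cell antigen, rose by 0.56 (SE 0.12, adjusted p = 0.00510), Lat, an adaptor of T-cell receptor signalling, by 0.35 (SE 0.08, adjusted p = 0.00472) and Cd3d, a receptor subunit, by 0.17 (adjusted p = 0.0170). Cd5, a damper of that receptor, fell by 0.61 on the log2 scale (SE 0.06, adjusted p = 1.04e-04). Rag1, a recombinase subunit, was at -0.61 (adjusted p = 0.0344), a call that ended without any 1 of labelled Sirt1-deleted samples 7, 8 and 12 or controls 2, 3, 5 and 6 (adjusted p up to 0.0852). Cd3e was at -0.04 (adjusted p = 0.743) and 0.02 under upper-quartile rescaling. The summed normalized count of the T-lineage list was 307517 to 333113 in the labelled Sirt1-deleted group against 297168 to 320004 in controls.

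Of 9 natural killer and cytotoxic genes tested, 0 rose and 1 fell (limma; 1 and 1 at an unadjusted p under 0.05, 0 and 1 by the rank-sum test): Il2rb, an interleukin receptor chain, fell by 0.44 on the log2 scale (SE 0.07, adjusted p = 0.00138), and Ncr1 is not in the table. Without replicate 10 of the labelled Sirt1-deleted group that list had 2 calls. For this list and the progenitor and erythroid lists below, the shares over all genes tested were 16.8% higher and 19.4% lower. No gene passed among 9 progenitor genes (limma; 1 higher and 0 lower at an unadjusted p under 0.05, 0 by the rank-sum test) or among 12 erythroid genes (0 higher and 2 lower at an unadjusted p under 0.05, 0 by the rank-sum test). Leaving out replicate 11 gave 1 progenitor call, and leaving out replicate 10, replicate 11 or control 3 gave 1 to 3 erythroid calls, all lower. Kit, the stem cell factor receptor, was at 0.07 (adjusted p = 0.734) and Hbb-bs, an adult beta globin, at -0.08 (adjusted p = 0.916). The natural killer sum was 14548 to 19643 against 13002 to 17725 in controls, and the progenitor sum 745 to 1001 against 715 to 989. The erythroid sum was 40622 to 164275 in the labelled Sirt1-deleted group against 44971 to 137796 in controls, a several-fold spread inside each group that was left after red cell lysis; replicate 8, highest for Ly6g and Ly6c2, was the lowest of its group for it.

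**Figure D4:**
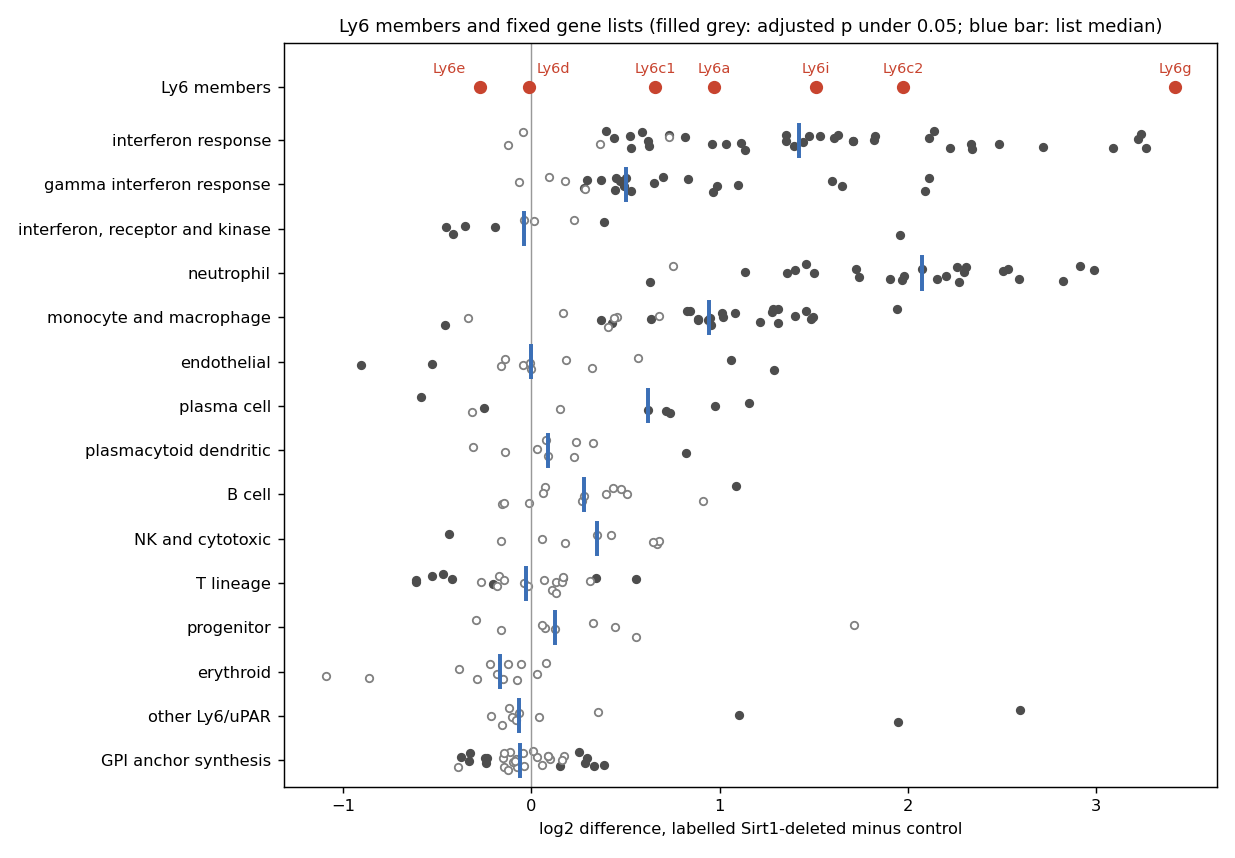
Log2 difference of labelled Sirt1-deleted minus control samples (x axis) for the 7 Ly6 members that passed the minimum mean (top row, red) and for every tested gene of the 15 lists (rows; filled grey points have a limma adjusted p under 0.05, open points do not, and blue bars are list medians). The neutrophil (median 2.08), interferon response (1.42) and monocyte and macrophage (0.95) lists lie mostly to the right of 0. Ly6g, from a set selected with these values known, is at 3.42.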

How the data were processed

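RNA from 10 mouse leukemic spleens, 5 labelled Sirt1-deleted and 5 control, was analysed. The authors deposited 1 table of gene values that hold a normalized signal: per the submitters' processing notes, transcripts were quantified with kallisto 0.44.0, the values were normalized with DESeq and the build was mm10. The annotation is not given in the sources used here. Samples were grouped by the genotype label; the numbers in their titles name them, and 0 columns belonged to other samples. Of the values up to 8.5 reads, 71.3% to 74.1% per sample were whole to within 0.1 reads; whole reads could therefore not be recovered, and count tests were not used.

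For genes with a mean of at least 10, log2(value + 1) was fitted with limma 3.58.1 in R 4.3.3 (group as the only term, intensity trend), and p-values were adjusted over all 15276 genes by the Benjamini-Hochberg method at 0.05. Differences are given as log2(value + 1), a scale that shrinks those of low genes. The procedure was tested on simulated data. The Ly6 genes and all gene lists were chosen with earlier results of these data known; 4 listed symbols were matched to the table through the older names in RefSeq. Named genes were the 8 members, Sirt1, 14 defining markers, the 3 nearest profiles of each member, up to 2 genes with the largest rise and 2 with the largest fall per list (mean of at least 50, adjusted p under 0.05), and the tested Ly6/uPAR relatives; others are named as chosen after their values were seen. Some genes that this rule names are not reported here. Sequences were compared with Biopython 1.88. Other settings tried were an added constant of 0.1 or 5, a minimum mean of 1, of 50 or none, rescaling by upper quartile or by quantiles, limma with sample weights or with no trend, a rank-sum test (exact), a minimum log2 difference of 1, omission of each sample in turn, and omission of samples 10 and 11 together.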

Additional observations from a re-analysis of the deposited data

Results flagged for a closer look

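Each group of 5 samples was examined for a single sample far from the rest, over 18 groups of values (the 2 groups of each member and of Sirt1), of which chance alone picks out about 1 in 20. The 1 sample found was control replicate 2 for Ly6c2: its normalized count of 88.8 was the lowest, and the other controls had 138 to 152. Its gap to the nearest sample was 0.789 of the range of the group, above the critical value of 0.71 for 5 samples. The same sample was the lowest control for Ly6c1, Ly6i and Ly6a. No cause was tested.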

How the results depend on the processing

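The number of genes that differed, 5518 with limma, was 3659 by rank sums (exact test; 1691 up, 1968 down) and 684 where a log2 change of 1 or more was also required (603 up, 81 down), and 4207 to 6259 with 1 sample left out. Ly6g, Ly6c2, Ly6i, Ly6a, Ly6c1 and Ly6e kept their direction in every alternative run: with 1 sample left out they ranged over 3.08 to 3.59, 1.74 to 2.15, 1.24 to 1.67, 0.81 to 1.09, 0.55 to 0.84 and -0.30 to -0.23. For Ly6i that range covers only 8 fits. Without labelled Sirt1-deleted replicate 7 or 8, its 2 highest samples, Ly6i fell under the minimum mean. Ly6d changed sign: 0.0488 with upper-quartile rescaling, 0.0173 with quantile normalization, 0.116 without labelled Sirt1-deleted samples 10 and 11, and -0.0952 to 0.0664 with 1 left out. Genes that had not passed also changed sign: Cd3e (0.0200 with upper-quartile rescaling; -0.106 to 0.0278 with 1 sample left out), Kit (-0.0173 to 0.165 with 1 left out), Hbb-bs (0.0014 with sample weights; -0.430 to 0.227 with 1 left out), Cd59a (-0.316 to 0.127 with 1 left out), Lypd5 (0.0147 without samples 10 and 11; -0.228 to 0.0124 with 1 left out), Lypd6b (-0.231 with quantile normalization; -0.282 to 0.209 with 1 left out) and Dtx3l (0.0131 and 0.0188 with upper-quartile and quantile scaling; -0.0937 to 0.00694 with 1 left out). Small counts moved most. The B-cell list had 2 calls with sample weights, 4 without samples 10 and 11 and 1 to 3 with 1 sample left out. The endothelial list had 1 call at a minimum mean of 50 and 2 to 4 with 1 left out. The erythroid list had 1 with weights, 4 without samples 10 and 11 and 0 to 3 with 1 left out. The progenitor list had 2 without samples 10 and 11 and 0 to 1 with 1 left out. The natural killer list had 2 with weights, 2 without samples 10 and 11 and 1 to 2 with 1 left out. The plasmacytoid list had 2 at a minimum mean of 1 or none, 0 at 50, 0 with quantile normalization, weights or without samples 10 and 11, and 0 to 1 with 1 left out. The GPI list had 6 to 12 with 1 left out. Of 52 named non-member genes that had passed and were followed through the alternatives, 38 passed in every alternative that tested them. Pigc and the genes named only as nearest profiles were not followed in this way. The causes were not tested. Count tests with edgeR and DESeq2 were planned but left out, for want of recoverable whole reads (not run). No paired analysis was possible because controls and tamoxifen-treated mice are numbered apart. Depth in reads is unknown, so values of Ly6k and Ly6i carry no counting interval.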
